A study of Mus musculus with 15 samples.

Results

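The genes of the leukaemia inhibitory factor (LIF) pathway described here were Lif, Lifr, Il6st, Jak1, Stat3, Socs3, Socs2 and Bcl3, taken by symbol from the count table: 8 of 49585 genes, each matched to 1 Ensembl identifier. They were followed in 15 poly(A) RNA libraries of wild-type mouse E14 embryonic stem cells, a single established line, with 3 libraries in each of 5 culture groups. All cells were maintained with 0.4 µM PD0325901 (a MEK inhibitor), 3 µM CHIR99021 (a GSK3 inhibitor) and 4 ng/ml Lif, then cultured in 3 dimensions, in Matrigel reduced in growth factors, at a density of 2000 cells per µl under N2B27 medium. The medium carried PD032+ Aurka inh (called the combination), PD032, Aurka inh (an inhibitor of Aurora kinase A), FGF2/Activin, or 2iLif. Of these media 2iLif was the one with added Lif, so the other 4 groups had left it. Its name also stands for inhibitors, as listed for the maintenance medium, and the other media held other additions. In comparisons with 2iLif, the lack of added Lif therefore cannot be told apart from these other differences. The labels do not expand PD032, and the descriptions of the FGF2/Activin libraries read FAK, also not expanded. They give no compound name or dose for the inhibitors, no treatment time and no group in N2B27 alone, and say nothing of separate cultures, so p-values measure the spread between these libraries, which may be technical.

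LIF is a secreted cytokine of the interleukin-6 family. It binds the receptor chain LIFR, which pairs with gp130, the shared signalling chain encoded by Il6st. The kinase JAK1 then phosphorylates STAT3, which enters the nucleus and switches on target genes, among them Socs3, whose protein binds gp130 and the JAKs and damps the signal. In mouse embryonic stem cells this route supports self-renewal and the naive state.

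Library totals ran from 16010904 to 24202544 counts across the inhibitor groups, from 15234243 to 15703321 in FGF2/Activin and from 15199507 to 15818758 in 2iLif. The files of 2iLif and FGF2/Activin follow one naming style, and the inhibitor groups' files follow another. In a comparison across these styles, a batch and the groups cannot be told apart. FGF2/Activin against 2iLif, and the comparisons among the inhibitor groups, stay within a style. Embryonic stem cell markers were abundant in every library, with 7 genes summing to between 2300 and 3780 CPM (counts scaled to a common library total), highest in 2iLif. Within that sum the markers differed between groups in both directions. Nanog averaged 385 CPM in the combination, 121 in PD032, 119 in Aurka inh and 40.4 in FGF2/Activin, against 530 in 2iLif, while Utf1 averaged 271, 349, 391 and 576 CPM in the same order, against 154 in 2iLif. Summed markers of primitive endoderm stayed between 1.52 and 7.73 CPM and those of trophoblast between 7.09 and 23.9 CPM. The 7 fibroblast markers summed to 4.13 to 6.45 CPM in the combination, 9.72 to 12.4 CPM in PD032, 12.5 to 19.6 CPM in Aurka inh, 19 to 20.6 CPM in FGF2/Activin and 2.47 to 3.04 CPM in 2iLif. Most of that was Thy1, while Postn was at 0 in all 15 libraries. In FGF2/Activin, Dcn averaged 4.55 CPM and Col1a2 2.08 CPM, against at most 0.113 and 0.467 CPM in the other groups. The part of such cells in the results was not tested.

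Upstream sequence is shown for Socs3, Bcl3 and Stat3, the 3 members that fell furthest in the combination relative to 2iLif. Capitals mark TTCNNNGAA, the palindrome bound by STAT dimers, which reads alike on both strands. The stretches are RefSeq promoter sequence on GRCm38.p6, minus strand, written 5′ to 3′ and trimmed to bases in no annotated exon of the gene. The Socs3 stretch lies within the gene's annotated span. They cover chr11:117969452-117969616 for Socs3, chr7:19822771-19823005 for Bcl3 and chr11:100939541-100939790 for Stat3.
Socs3: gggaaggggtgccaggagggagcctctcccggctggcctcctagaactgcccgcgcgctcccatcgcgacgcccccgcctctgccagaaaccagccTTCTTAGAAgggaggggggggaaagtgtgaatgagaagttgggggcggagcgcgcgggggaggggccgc
Bcl3: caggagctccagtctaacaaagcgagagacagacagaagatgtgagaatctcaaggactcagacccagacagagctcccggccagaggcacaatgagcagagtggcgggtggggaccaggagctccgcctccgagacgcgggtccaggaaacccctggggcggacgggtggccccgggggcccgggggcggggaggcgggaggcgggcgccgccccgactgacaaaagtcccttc
Stat3: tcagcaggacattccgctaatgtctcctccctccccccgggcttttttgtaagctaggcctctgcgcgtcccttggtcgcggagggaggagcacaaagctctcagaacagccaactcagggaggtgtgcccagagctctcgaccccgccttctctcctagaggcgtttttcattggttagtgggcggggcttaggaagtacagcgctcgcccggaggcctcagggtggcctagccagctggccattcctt
Promoter entries were matched for 7 of the 8 members. Within 250 bases before the start, the motif was in 1 of their 8 entries, that of Socs3, where it began 154 bases upstream as TTCTTAGAA. Among all 32851 entries 2306 held it, which is 7.02%. A match describes letters in this window and is not evidence of binding.

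Socs3 (ENSMUSG00000053113, chromosome 11, 117966079 to 117970047) had the widest range of the 8 genes. It stood at 0.184, 0.366 and 0.167 CPM in the combination, 4.89, 1.5 and 6.0 CPM in PD032, 2.96, 2.2 and 3.07 CPM in Aurka inh and 2.23, 2.36 and 2.17 CPM in FGF2/Activin, against 131, 133 and 133 CPM in 2iLif. Every library without added Lif lay below every 2iLif library, and the combination lay below all others. Relative to 2iLif, the log2 fold change was -9.12 (SE 0.34) in the combination, -4.96 (SE 0.23) in PD032, -5.57 (SE 0.24) in Aurka inh and -5.87 (SE 0.26) in FGF2/Activin, with an edgeR adjusted p of at most 2.3e-11. The 3 libraries of the combination held 15 Socs3 counts in all, with an exact Poisson 95% interval of 8.4 to 24.7 that covers counting error only. In bulk RNA, fewer cells with the transcript and less transcript per cell cannot be told apart.

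Read against all 15223 genes tested, the change of Socs3 in the combination was the most negative fitted value, at position 1 from the lowest. It was at position 70 in PD032, 42 in Aurka inh and 54 in FGF2/Activin. Fitted values of genes at 0 counts in a group depend on the prior count, so these positions are descriptions. In the order of levels, 2iLif came first. PD032 and Aurka inh did not differ beyond the spread pooled over all groups (edgeR adjusted p = 0.11). Aurka inh and FGF2/Activin did not either (edgeR adjusted p = 0.5), and the combination was lower again than FGF2/Activin (edgeR adjusted p = 0.00014). PD032 replicate 2 was the lowest of its group, and without it PD032 exceeded Aurka inh by a log2 fold change of 0.97 (edgeR adjusted p = 3.64e-05). With replicate number as a block the same difference was 0.57 (edgeR adjusted p = 0.0435), and over the alternatives the adjusted p ran from 3.64e-05 to 0.557.

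Bcl3 (ENSMUSG00000053175, chromosome 7, 19808462 to 19822770) encodes an IκB family protein that acts as a nuclear cofactor of NF-κB, and is a STAT3 target in mouse embryonic stem cells. Its libraries stood at 0.691, 0.313 and 0.5 CPM in the combination, 1.23, 1.61 and 1.41 CPM in PD032, 0.409, 0.378 and 0.312 CPM in Aurka inh and 0.917, 1.4 and 1.28 CPM in FGF2/Activin, against 54.6, 55.5 and 59.7 CPM in 2iLif. Again no library without added Lif came near 2iLif. The log2 fold change relative to 2iLif was -6.78 (SE 0.16) in the combination, -5.32 (SE 0.14) in PD032, -7.24 (SE 0.17) in Aurka inh and -5.55 (SE 0.15) in FGF2/Activin (edgeR adjusted p at most 4.8e-14). The lowest groups were the combination and Aurka inh, with 33 and 21 summed counts, while PD032 and FGF2/Activin stood higher. The difference between the 2 lowest groups did not pass (edgeR adjusted p = 0.38). Exact Poisson 95% intervals of those sums were 22.7 to 46.3 and 13.0 to 32.1. At such counts the SE can be narrower than counting error. An antisense gene, Gm16175, shares 161 exon bases with Bcl3. Without a stated strand setting, their reads cannot be told apart.

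Stat3 (ENSMUSG00000004040, chromosome 11, 100885098 to 100939540) encodes the transcription factor of the pathway and was also lower in each medium without added Lif. The values were 43.2, 36.6 and 43.4 CPM in the combination, 41.1, 34.5 and 40.6 CPM in PD032, 31.1, 25.0 and 28.0 CPM in Aurka inh and 34.8, 34.3 and 35.8 CPM in FGF2/Activin, against 191, 185 and 184 CPM in 2iLif. As fitted, the levels were 22.0% (combination), 20.8% (PD032), 15.1% (Aurka inh) and 18.7% (FGF2/Activin) of that in 2iLif, and among these 4 Aurka inh was the lowest. The log2 fold changes were -2.18, -2.27, -2.73 and -2.42 in that order, with SE from 0.083 to 0.086 and an edgeR adjusted p of at most 8.8e-12. Stat3 shares 72 exon bases with Stat5a on the opposite strand, and Jak1 4 with Raver2.

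Jak1 (ENSMUSG00000028530, chromosome 4, 101152367 to 101265282), the kinase held by the receptor chains, varied little. Means ± SD (n = 3 libraries each) were 51.7 ± 1.22 CPM in the combination, 58.8 ± 2.97 CPM in PD032, 44.0 ± 1.31 CPM in Aurka inh, 54.0 ± 2.77 CPM in FGF2/Activin and 55.5 ± 1.42 CPM in 2iLif. It fell by 0.33 on the log2 scale in Aurka inh (SE 0.056, edgeR adjusted p = 9.3e-05). In PD032 the difference of 0.08 did not pass, except with library size alone (edgeR adjusted p = 0.0261, in a range up to 0.587). In FGF2/Activin the difference from 2iLif was -0.04, with an approximate 95% interval of -0.15 to 0.07.

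**Figure D1:**
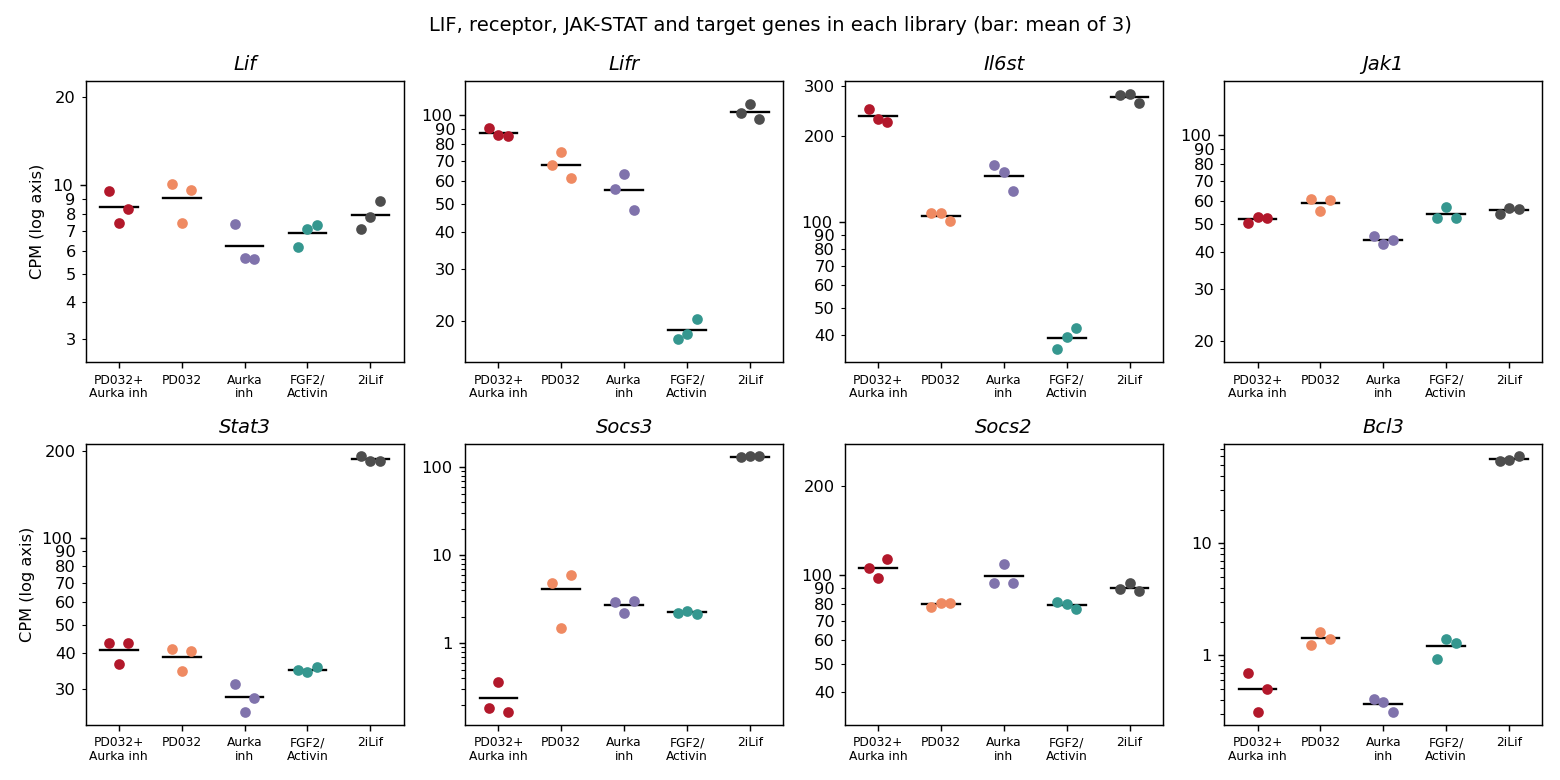
CPM on a log axis for each of the 15 libraries (points) and the group mean (bars) of the 8 genes. Socs3, Bcl3 and Stat3 are high in 2iLif and low in the other 4 groups, whereas Lifr and Il6st are lowest in FGF2/Activin and nearest to 2iLif in the combination.

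The receptor chains followed another pattern, in which the combination stayed near 2iLif and FGF2/Activin stood far below. Il6st (ENSMUSG00000021756, chromosome 13, 112464070 to 112510086) had 249, 230 and 223 CPM in the combination, 107, 107 and 101 CPM in PD032, 158, 149 and 128 CPM in Aurka inh and 35.8, 39.4 and 42.5 CPM in FGF2/Activin, against 279, 281 and 261 CPM in 2iLif. No 2 groups overlapped in Il6st, and all neighbours in the order 2iLif, combination, Aurka inh, PD032, FGF2/Activin differed. The log2 fold change relative to 2iLif was -0.23 (SE 0.071) in the combination, -1.39 (SE 0.073) in PD032, -0.92 (SE 0.073) in Aurka inh and -2.80 (SE 0.08) in FGF2/Activin. The smallest of these had an edgeR adjusted p of 0.016, and of 0.0698 without replicate 3 of the combination, in a range from 0.00421.

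Lifr (ENSMUSG00000054263, chromosome 15, 7090614 to 7197489), the chain that binds LIF, had 90.3, 85.9 and 84.7 CPM in the combination, 67.8, 74.7 and 61.2 CPM in PD032, 56.2, 63.3 and 47.7 CPM in Aurka inh and 17.4, 18.1 and 20.3 CPM in FGF2/Activin, against 102, 109 and 97.2 CPM in 2iLif. Its order was that of Il6st except that PD032 came above Aurka inh. FGF2/Activin was lower than 2iLif (log2 -2.46, SE 0.1, edgeR adjusted p = 4.5e-12), and so were PD032 (-0.60) and Aurka inh (-0.89). In the combination it was -0.24 (SE 0.09, edgeR adjusted p = 0.036). That call was lost in 5 of 13 alternatives, with library size alone and without 2iLif replicates 1 or 2 or replicates 2 or 3 of the combination, and its adjusted p ran from 0.00697 to 0.119. Per kilobase of annotated exon, the level of Il6st was 2.61 ± 0.0557 times that of Lifr in the combination, 1.51 ± 0.107 in PD032, 2.54 ± 0.229 in Aurka inh, 2.05 ± 0.0569 in FGF2/Activin and 2.59 ± 0.0777 in 2iLif (SD, n = 3 libraries each).

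**Figure D2:**
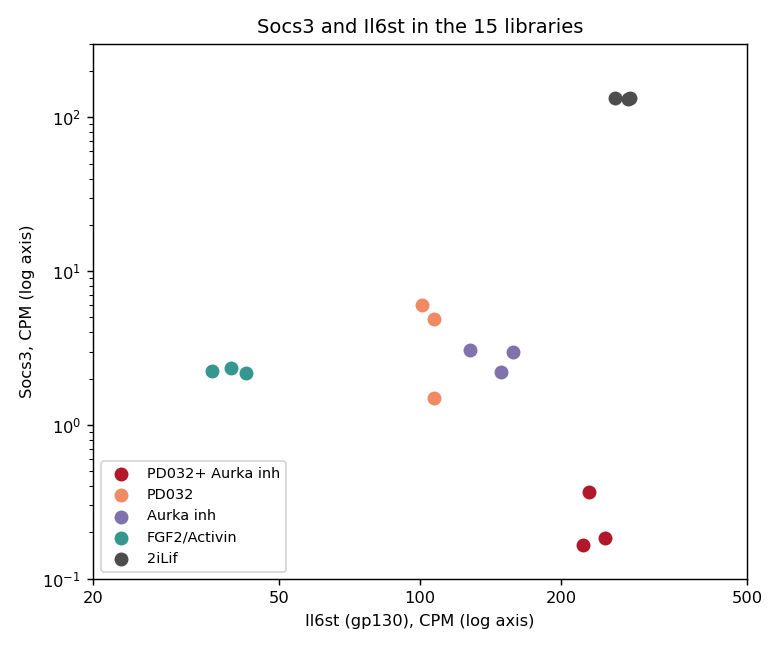
Socs3 against Il6st in CPM, both axes logarithmic, 1 point per library. The combination lies at 223 to 249 CPM of Il6st, close to 2iLif, and at 0.167 to 0.366 CPM of Socs3, below every other library.

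Socs2 (ENSMUSG00000020027, chromosome 10, 95385362 to 95417180), a suppressor of cytokine signalling best known for restraining growth hormone signalling, showed no loss of the size seen in Socs3. It stood at 106 ± 7.75 CPM in the combination, 79.5 ± 1.22 CPM in PD032, 99.0 ± 8.28 CPM in Aurka inh, 79.1 ± 2.08 CPM in FGF2/Activin and 90.6 ± 2.79 CPM in 2iLif (SD, n = 3 libraries each). Relative to 2iLif it rose in the combination (log2 0.23, SE 0.063, edgeR adjusted p = 0.0073) and fell in PD032 (-0.19, edgeR adjusted p = 0.017) and FGF2/Activin (-0.20, edgeR adjusted p = 0.013). The PD032 call was lost with library size alone (edgeR adjusted p = 0.112) and without PD032 replicate 1 (0.0531), in a range from 0.0128, and the FGF2/Activin call without FGF2/Activin replicate 3 (0.0536, in a range from 0.000188). In Aurka inh the difference of 0.13 passed with library size alone (edgeR adjusted p = 0.0207, in a range up to 0.45). Per kilobase, the level of Socs2 was 81.3 to 207 times that of Socs3 in the combination, 4.06 to 16.2 times in PD032, 9.31 to 14.9 times in Aurka inh, 10.3 to 11.0 times in FGF2/Activin and 0.201 to 0.214 times in 2iLif. The highest PD032 value was that of replicate 2, and the other PD032 libraries stood at 4.84 and 4.06. The ratios of the combination rest on 4, 7 and 4 Socs3 counts, so their range cannot be told apart from counting error.

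Transcripts of Lif itself (ENSMUSG00000034394, chromosome 11, 4257557 to 4272514) were low in every group. The libraries held 9.53, 7.42 and 8.29 CPM in the combination, 10.1, 7.46 and 9.6 CPM in PD032, 7.41, 5.66 and 5.62 CPM in Aurka inh and 6.16, 7.08 and 7.35 CPM in FGF2/Activin, against 7.08, 7.78 and 8.86 CPM in 2iLif. None of the 4 groups differed from 2iLif beyond the pooled spread (edgeR adjusted p from 0.075 to 0.65). The approximate 95% interval of the log2 difference was -0.20 to 0.38 in the combination, -0.09 to 0.49 in PD032, -0.64 to -0.03 in Aurka inh and -0.51 to 0.10 in FGF2/Activin. Without Aurka inh replicate 1 the difference of Aurka inh passed (log2 -0.49, edgeR adjusted p = 0.0207, in a range up to 0.279). No 2 neighbours in the order of Lif levels differed.

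**Figure D3:**
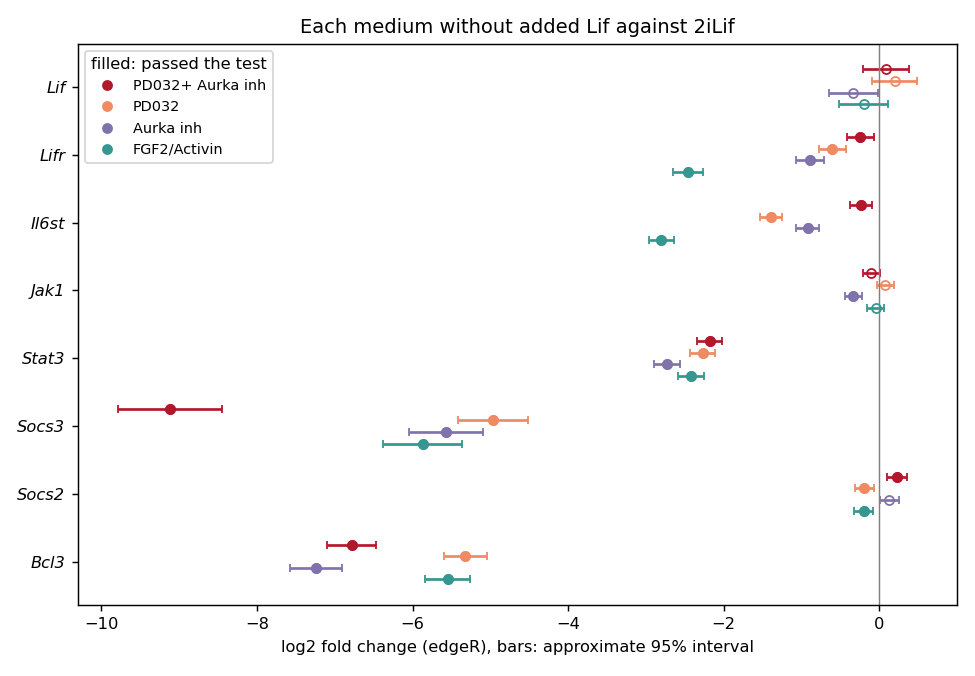
Log2 fold change relative to 2iLif of the 8 genes in the 4 media without added Lif, with bars of the approximate 95% interval and filled points where the edgeR test passed. At the low counts of Socs3 and Bcl3 the bars can be narrower than counting error. Socs3 in the combination lies at -9.12, and Lifr and Il6st lie at -0.24 and -0.23 in the combination but at -2.46 and -2.80 in FGF2/Activin.

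Counted over the 8 genes, 6 fell in FGF2/Activin relative to 2iLif and 2 did not pass, where 32.6% of all genes tested fell and 33.3% rose. In the combination 5 fell and 1 rose, beside 23.8% falling and 23.8% rising over all genes. PD032 and Aurka inh each had 6 lower members, beside 30.9% falling and 32.1% rising over all genes in PD032 and 29.5% falling and 28.9% rising in Aurka inh. Median log2 fold changes of the members were -2.44 in FGF2/Activin, -0.235 in the combination, -0.995 in PD032 and -0.905 in Aurka inh, while medians of all genes tested lay between -0.011 and 0.0141. These 4 comparisons share the 2iLif libraries.

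Among the inhibitor groups, none of which had added Lif, the combination set against PD032 shows the change with the Aurora inhibitor added. Receptor chains were higher and the 2 targets lower. Il6st rose by 1.16 on the log2 scale (SE 0.073, edgeR adjusted p = 3.1e-09) and Lifr by 0.36 (SE 0.09, edgeR adjusted p = 0.0041). Socs3 fell by 4.16 on the log2 scale (SE 0.49, edgeR adjusted p = 4.1e-06) and Bcl3 by 1.46 (SE 0.23, edgeR adjusted p = 9.3e-05). Libraries did not overlap in any of the 4 genes, but the share of all genes without overlap is not given here. Stat3 did not pass, at 0.08 with an approximate 95% interval of -0.08 to 0.25. Socs2 rose by 0.42 (edgeR adjusted p = 5.3e-05). Jak1 fell by 0.19 on the log2 scale (edgeR adjusted p = 0.011), a call lost in 4 of 13 alternatives, among them without replicate 1 of the combination or PD032 replicate 1 (adjusted p from 0.00252 to 0.0708). In all, 3 members rose and 3 fell, beside 20.0% higher and 23.8% lower over all genes tested.

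The combination set against Aurka inh shows the change with PD032 added to the Aurora inhibitor. Socs3 fell by 3.55 on the log2 scale (SE 0.54, edgeR adjusted p = 9.8e-05), whereas Bcl3 did not pass (0.46, with a 95% interval of -0.17 to 1.09). The receptor chains and Stat3 rose, Il6st by 0.69 (edgeR adjusted p = 2.2e-06), Lifr by 0.64 (edgeR adjusted p = 4.7e-05) and Stat3 by 0.55 (edgeR adjusted p = 0.00013). Jak1 rose by 0.23 (edgeR adjusted p = 0.0039). Socs2 did not pass at 0.10, except without Aurka inh replicate 2 (edgeR adjusted p = 0.0323, in a range up to 0.638). Lif passed at 0.43 (edgeR adjusted p = 0.037), a call lost in 7 of 13 alternatives (adjusted p from 0.00455 to 0.177), including without Aurka inh replicates 2 or 3 or replicates 1 or 3 of the combination. Members counted 5 higher and 1 lower, beside 18.6% and 16.3% of all genes.

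PD032 against Aurka inh sets one inhibitor against the other. Bcl3 stood at 1.42 ± 0.188 CPM in PD032 and 0.366 ± 0.0496 CPM in Aurka inh (SD, n = 3 each), or 1.92 higher on the log2 scale (SE 0.26, edgeR adjusted p = 1.8e-05). Lif rose by 0.54 (edgeR adjusted p = 0.0076), Stat3 by 0.46 (edgeR adjusted p = 0.00039) and Jak1 by 0.42 (edgeR adjusted p = 1.4e-05). The 2 receptor chains moved in opposite directions. Il6st fell by 0.47 on the log2 scale (edgeR adjusted p = 7.5e-05) and Lifr rose by 0.29 (edgeR adjusted p = 0.018), although the Lifr libraries overlapped and its call was lost in 3 of 13 alternatives, among them without Aurka inh replicate 3 or PD032 replicate 2 (adjusted p from 0.000429 to 0.118). Members counted 5 higher and 2 lower, beside 25.8% and 19.7% of all genes.

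**Figure D4:**
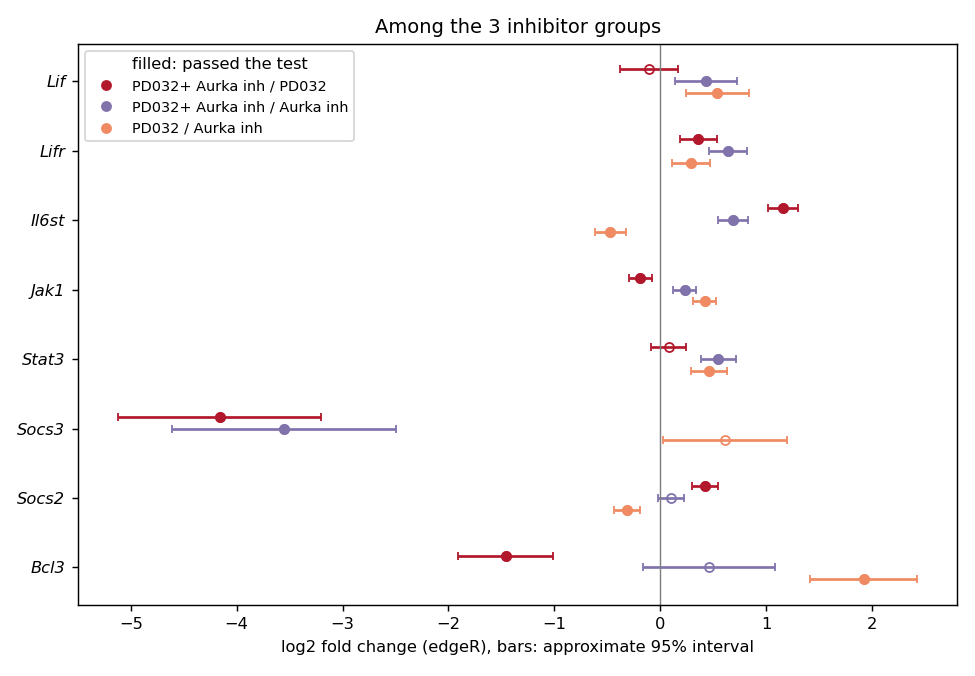
Log2 fold changes of the 8 genes between the inhibitor groups, with bars of the approximate 95% interval and filled points where the edgeR test passed. At the low counts of Bcl3 the bars can be narrower than counting error. Socs3 lies at -4.16 and -3.55 in the 2 comparisons of the combination, in which Il6st lies at 1.16 and 0.69.

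Set against FGF2/Activin, which also lacked added Lif, the inhibitor groups had more receptor transcript. Il6st was higher by a log2 fold change of 2.58 (SE 0.079) in the combination, 1.42 (SE 0.078) in PD032 and 1.88 (SE 0.079) in Aurka inh, with an edgeR adjusted p of at most 4.7e-10. Lifr was higher by 2.22, 1.86 and 1.58 in the same order. Stat3 differed little: 0.23 in the combination, 0.15 in PD032, which passed in 1 of 13 alternatives, without PD032 replicate 2 (edgeR adjusted p = 0.0313, in a range up to 0.365), and -0.31 in Aurka inh. The Stat3 call in the combination (edgeR adjusted p = 0.025) was lost without FGF2/Activin replicates 1 or 2 or replicate 3 of the combination, with a range from 0.00462 to 0.0975. Jak1 in PD032 was above FGF2/Activin by 0.12, which passed in 3 of 13 alternatives, with library size alone and without FGF2/Activin replicate 2 or PD032 replicate 2 (edgeR adjusted p from 0.0224 to 0.203). Socs3 was lower in the combination by 3.25 on the log2 scale and higher in PD032 by 0.91 (edgeR adjusted p = 0.026). The PD032 call was lost in 8 of 13 alternatives, without any FGF2/Activin library or PD032 replicates 1 or 3 among them (adjusted p from 1.08e-07 to 0.176). Members counted 4 higher and 2 lower in the combination, 4 and 0 in PD032 and 3 and 3 in Aurka inh. Over all genes tested, 33.0% rose and 33.8% fell in the combination, 30.0% and 29.0% in PD032 and 25.0% and 30.1% in Aurka inh. Lif was higher in PD032 by 0.41 on the log2 scale (edgeR adjusted p = 0.029), a call lost in 5 of 13 alternatives, among them without FGF2/Activin replicates 1 or 2 or PD032 replicates 1 or 3 (adjusted p from 0.00632 to 0.116).

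Other genes of the pathway were followed in lists of 56 genes, of which 50 had enough counts to be tested. Of 9 further JAK and STAT genes all 9 fell in FGF2/Activin relative to 2iLif, with a median log2 fold change of -0.74, beside 32.6% of all genes tested falling and a median of -0.011. In the combination 6 fell and 2 rose (23.8% and 23.8% over all genes), in PD032 7 fell and 2 rose (30.9% and 32.1%), and in Aurka inh 7 fell and none rose (29.5% and 28.9%). Jak3, a kinase known mainly from lymphocytes, had 32.6 ± 1.97 CPM in the combination, 16.1 ± 0.769 CPM in PD032, 16.2 ± 2.36 CPM in Aurka inh and 10.3 ± 0.5 CPM in FGF2/Activin, against 150 ± 5.18 CPM in 2iLif (SD, n = 3 each). Stat5a, a STAT factor activated by many cytokines, stood at 14.4 ± 2.25 CPM in the combination, 7.43 ± 0.355 CPM in PD032, 6.8 ± 1.17 CPM in Aurka inh and 3.05 ± 0.298 CPM in FGF2/Activin, against 26.2 ± 1.36 CPM in 2iLif. Both genes passed as lower in all 4 media (edgeR adjusted p at most 2.1e-05), and in both the combination was the nearest to 2iLif.

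Of 9 other ligands of the interleukin-6 family 5 were tested, and Il6, Il11, Il27 and Cntf were too low. Osm, which encodes oncostatin M, a ligand that also signals through gp130, had 28.1 ± 4.73 CPM in the combination, 4.85 ± 0.776 CPM in PD032, 5.14 ± 2.2 CPM in Aurka inh and 0.493 ± 0.182 CPM in FGF2/Activin, against 40.4 ± 1.82 CPM in 2iLif (SD, n = 3 each). Its log2 fold change was 2.54 (SE 0.2, edgeR adjusted p = 4.5e-08) in the combination relative to PD032 and 2.47 (SE 0.2, edgeR adjusted p = 1.7e-07) relative to Aurka inh. Osmr, the receptor that mouse oncostatin M mainly uses, was not tested, and its highest group mean was 0.33 CPM, in 2iLif. The list as a whole had 3 genes higher and 1 lower in FGF2/Activin, 3 lower in the combination, 1 higher and 1 lower in PD032 and 2 higher and 1 lower in Aurka inh, relative to 2iLif. Over all genes tested, 23.8% to 33.3% passed in each direction in these comparisons.

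Of 5 further receptor chains 4 were tested, and in each medium without added Lif 2 rose and 2 fell relative to 2iLif, where 23.8% to 33.3% of all genes tested passed in each direction. Il6ra, the interleukin-6 receptor chain, fell to 10.1 ± 0.755 CPM in the combination, 1.92 ± 0.715 CPM in PD032, 7.15 ± 0.48 CPM in Aurka inh and 2.17 ± 0.382 CPM in FGF2/Activin, against 27.3 ± 0.521 CPM in 2iLif (SD, n = 3 each). Cntfr, the receptor chain for ciliary neurotrophic factor, rose to 2.67 ± 0.798 CPM in the combination, 3.06 ± 0.174 CPM in PD032, 5.18 ± 0.411 CPM in Aurka inh and 12.2 ± 1.81 CPM in FGF2/Activin, against 0.664 ± 0.385 CPM in 2iLif. The edgeR adjusted p was at most 4.3e-07 for Il6ra and 7.5e-05 for Cntfr. Levels of Cntfr were highest where Lifr and Il6st were lowest.

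Of 15 other STAT3 targets 14 were tested. Relative to 2iLif 10 fell and 2 rose in the combination, 10 and 2 in PD032, 11 and 2 in Aurka inh and 9 and 4 in FGF2/Activin. Over all genes tested, 23.8% fell and 23.8% rose in the combination, 30.9% and 32.1% in PD032, 29.5% and 28.9% in Aurka inh and 32.6% and 33.3% in FGF2/Activin. The targets' median log2 fold changes were -1.54, -1.70, -1.73 and -1.23 in that order, and the medians of all genes lay between -0.011 and 0.0141. Klf4, a transcription factor of the naive state, had 48.3 ± 1.15 CPM in the combination, 14.3 ± 2.16 CPM in PD032, 15.7 ± 1.84 CPM in Aurka inh and 3.8 ± 0.168 CPM in FGF2/Activin, against 338 ± 8.81 CPM in 2iLif (SD, n = 3 each). Tfcp2l1, a further naive factor, had 264 ± 25.5 CPM in the combination, 66.3 ± 5.16 CPM in PD032, 74.2 ± 18.7 CPM in Aurka inh and 26.8 ± 1.06 CPM in FGF2/Activin, against 1300 ± 49.1 CPM in 2iLif. Both fell in all 4 media (edgeR adjusted p at most 6.2e-10), and, as in Il6st, the combination was the closest of the 4 to 2iLif.

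Gbx2 and Junb, in contrast, had their lowest means in the combination. For Gbx2 the libraries of the combination (0.261 to 0.737 CPM) overlapped those of Aurka inh (0.5 to 1.26 CPM). Gbx2, a homeobox factor, had 0.569 ± 0.267 CPM in the combination, 1.9 ± 0.265 CPM in PD032, 0.846 ± 0.384 CPM in Aurka inh and 17.7 ± 0.391 CPM in FGF2/Activin, against 26.5 ± 2.01 CPM in 2iLif (SD, n = 3 each). Junb, an AP-1 factor, had 1.43 ± 0.211 CPM in the combination, 3.28 ± 1.31 CPM in PD032, 2.8 ± 0.143 CPM in Aurka inh and 6.7 ± 0.225 CPM in FGF2/Activin, against 17.9 ± 1.06 CPM in 2iLif. Both fell in all 4 media (edgeR adjusted p at most 0.0021). Not all targets fell. Cebpd, a C/EBP transcription factor, rose in all 4 media, to 4.37 ± 0.862 CPM in the combination, 7.2 ± 1.17 CPM in PD032, 5.31 ± 0.511 CPM in Aurka inh and 9.11 ± 0.542 CPM in FGF2/Activin, against 1.07 ± 0.312 CPM in 2iLif (edgeR adjusted p at most 2e-06). Myc, a growth-promoting transcription factor, fell to 6.02 ± 0.993 CPM in the combination, 3.6 ± 0.964 CPM in PD032 and 14.7 ± 0.93 CPM in Aurka inh but rose to 64.0 ± 2.21 CPM in FGF2/Activin, against 21.1 ± 0.342 CPM in 2iLif (edgeR adjusted p at most 0.0014). In the combination relative to PD032, 5 of the 14 targets rose and 6 fell, beside 20.0% and 23.8% of all genes. Tfcp2l1 rose by a log2 fold change of 1.99 and Klf4 by 1.75, whereas Gbx2 fell by 1.69 and Junb by 1.20 on the log2 scale, with edgeR adjusted p of at most 0.00065. Relative to Aurka inh 5 rose and 3 fell, beside 18.6% and 16.3%.

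**Figure D5:**
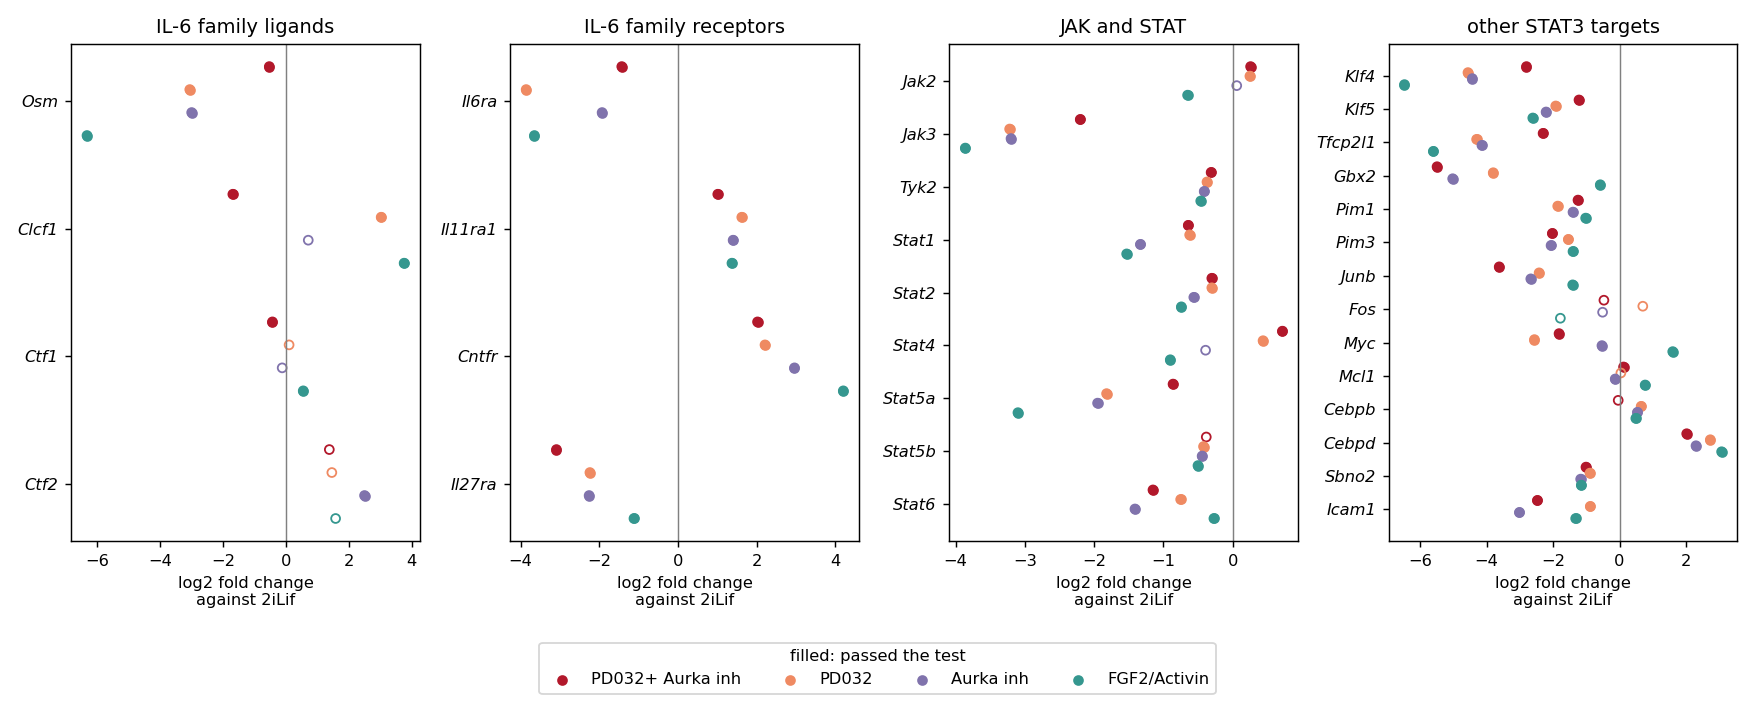
Log2 fold changes relative to 2iLif of genes from the lists of ligands, receptors, JAK and STAT genes and other STAT3 targets in the 4 media without added Lif, filled where the edgeR test passed. Klf4 and Tfcp2l1 lie at -2.80 and -2.30 in the combination and at -6.47 and -5.60 in FGF2/Activin, while Gbx2 lies at -5.49 in the combination and -0.58 in FGF2/Activin.

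Genes with the most similar pattern were ranked by the root mean square difference in centred log2 CPM over the 5 group means. Clone and predicted-gene names were left out of this ranking. For Socs3 the nearest was Bcl3, at 1.09, followed by Fgf10 at 1.29 and Krt13 at 1.32, so no ranked gene came within 1 log2 unit of Socs3. Stat3 was nearest to Lpar5 at 0.142, Cadm4 at 0.167 and Adamts8 at 0.176. For Il6st the nearest were Sh3gl2 at 0.1, Relb at 0.139 and Calhm5 at 0.142, and for Lifr they were Apod at 0.141, Zfp57 at 0.17 and Phf11d at 0.178. Relb had 45.7 CPM in the combination, 23.1 CPM in PD032, 29.5 CPM in Aurka inh and 7.22 CPM in FGF2/Activin, against 66.2 CPM in 2iLif. Jak1, Socs2 and Lif changed so little that many genes lay close, the nearest being Tmem126b at 0.0289, Tmed5 at 0.0352 and Wdfy3 at 0.0404.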

How the data were processed

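The deposited count table held whole-number counts per gene for 15 libraries, and another deposited table gave normalized log2 values, with a floor of 5.566 at 0 counts. Per the submitters' processing notes, STAR, DESeq2 and the build mm10 were used. Not given in the sources used here: the counting tool, its annotation and strand setting. Of 49585 genes, 49326 had a symbol in GENCODE M21 (GRCm38), which gave coordinates and exon lengths.

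The filter filterByExpr kept 15223 genes, all 8 members among them. All libraries entered 1 quasi-likelihood fit of edgeR 4.0.16 (R 4.3.3) with TMM scaling and a term per group. The 10 pairs of groups were compared, and genes passed when p, adjusted by Benjamini-Hochberg across the whole table tested, was under 0.05. The SE is the absolute log2 fold change divided by the square root of the F statistic of its test. Approximate 95% intervals are the log2 fold change with a normal multiple of this SE. Where a group held few counts, both can be narrower than counting error alone. CPM values use TMM-scaled totals, and log2 CPM a prior count of 2. Alternatives used DESeq2 1.42.0, limma 3.58.1 on the log2 table, other scalings, no filter, the 2 groups alone, a replicate block, and leaving out each library. The fit was also run on simulated counts, drawn for independent libraries with its own dispersion. Such counts cannot test unequal spread between groups or libraries that deviate together.

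Same-numbered libraries deviated together from their group means among the inhibitor groups (correlation across genes from 0.17 to 0.483) but not elsewhere (-0.0448 to 0.0654). Replicate pairs all differed by more than sampling noise (chi-squared per degree of freedom from 1.22 to 17.4). The spread within groups, as a biological coefficient of variation, was 8.91% in the combination, 9.36% in PD032, 11.2% in Aurka inh, 1.77% in FGF2/Activin and 4.54% in 2iLif, and the fit pools it. Members and lists were chosen with earlier results of these data known. Named genes were the members, up to 4 passing genes per list and comparison with the largest fold change, and the 3 nearest in pattern. The levels of Relb, Nanog and Utf1, Myc relative to 2iLif, and Junb in the combination against PD032 were chosen after their values were seen. A gene of the lists is counted but not reported here.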

Additional observations from a re-analysis of the deposited data

How the results depend on the processing

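Of 80 member results, 1039 values under alternatives were computed, of which 984 kept direction and call, 39 lost the call, 11 gained it and 5 changed sign. The changes of Socs3, Bcl3 and Stat3 relative to 2iLif kept both in all 13 alternatives of each. Sign changes concerned differences close to 0: Lif in the combination against 2iLif, whose log2 difference ran from -0.0124 to 0.1762 with 1 replicate left out, and Socs2 in PD032 against FGF2/Activin, at -0.0154 with RLE size factors, -0.0159 with DESeq2, -0.0066 in the deposited log2 table and from -0.0149 to 0.0226 with 1 replicate left out. With the 2 groups alone, 3480 genes passed in the combination against Aurka inh, against 5311 in the common fit. All other counts of genes stayed within 1.5 times. With replicate number as a block 8533 genes passed in the combination against PD032 and 7181 against Aurka inh, and the block changed no member's call other than that of Socs3 in PD032 against Aurka inh. Values in the deposited log2 table are compressed at low levels: Socs3 in the combination against 2iLif was -5.39 there and -9.12 in the count fit, against PD032 -1.26 and -4.16, and Bcl3 in the combination against PD032 -0.43 and -1.46. Scaling by library size alone moved the median of all genes by at most 0.0736. At 15 counts over 3 libraries, Socs3 in the combination is known no more closely than its counting interval.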

Other observations

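Genes that restrain the pathway passed in both directions. Of 13 further inhibitors of JAK-STAT signalling, relative to 2iLif 2 rose and 5 fell in the combination, 3 and 2 in PD032, 5 and 5 in Aurka inh and 4 and 6 in FGF2/Activin. Over all genes tested 23.8% rose and 23.8% fell in the combination, 32.1% and 30.9% in PD032, 28.9% and 29.5% in Aurka inh and 33.3% and 32.6% in FGF2/Activin. Socs1, a suppressor that acts on the JAKs, had 1.66 ± 0.235 CPM in the combination, 2.28 ± 0.268 CPM in PD032, 2.39 ± 0.177 CPM in Aurka inh and 8.57 ± 1.0 CPM in FGF2/Activin, against 2.64 ± 0.485 CPM in 2iLif (SD, n = 3 each). It was thus higher in FGF2/Activin (log2 1.70, SE 0.16, edgeR adjusted p = 1.1e-07), where Socs3 was lower. Cish, a suppressor best known as a STAT5 target, had 0.245 ± 0.0339 CPM in the combination and 1.36 ± 0.232 CPM in 2iLif, a log2 fold change of -2.43 (edgeR adjusted p = 0.00011). Pias3, which encodes an inhibitor of STAT3, had 45.7 ± 1.65 CPM in PD032 against 20.1 ± 1.24 CPM in Aurka inh, a log2 fold change of 1.18 (edgeR adjusted p = 1.2e-09).

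Among the 5 adaptors that link gp130 to ERK and PI3K signalling, relative to 2iLif 1 rose and 1 fell in the combination, 1 and 3 in PD032, none and 3 in Aurka inh, and 3 and 1 in FGF2/Activin, with 23.8% to 33.3% of all genes passing in each direction. Shc1, an adaptor of receptor tyrosine kinases, had 129 ± 6.62 CPM in the combination, 164 ± 12.7 CPM in PD032, 129 ± 14.9 CPM in Aurka inh and 261 ± 0.806 CPM in FGF2/Activin, against 194 ± 2.24 CPM in 2iLif, and passed as lower in the 3 inhibitor groups and higher in FGF2/Activin (edgeR adjusted p at most 0.0094). Clcf1, a ligand of the family that acts through Cntfr, had 0.0759 ± 0.0209 CPM in the combination, 2.19 ± 0.274 CPM in PD032, 0.43 ± 0.105 CPM in Aurka inh and 3.65 ± 0.905 CPM in FGF2/Activin, against 0.263 ± 0.0611 CPM in 2iLif. Its means rest on 5 summed counts in the combination and 12 in 2iLif, close to the floor.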
